A study of Homo sapiens with 6 samples.

Results

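S100 proteins and annexins were followed at the level of their mRNA in 12Z cells, a human epithelial line established from endometriosis tissue, after depletion of the chromatin remodelling ATPase BRG1. The set holds 10 named genes, S100A2, S100A4, S100A6, S100A10, S100A11, S100A13, S100A16, ANXA1, ANXA2 and ANXA3, of 58336 gene identifiers in the files. All 10 were found by symbol and all 10 passed the filter on low counts. The siBRG1 group held 3 libraries of cells transfected with 50 nM siRNA against SMARCA4, which encodes BRG1, and the control group held 3 libraries of cells given a non-targeting siRNA. Both groups were moved from 10% to 0.5% serum at 48 h and extracted at 72 h, and both carry the transfection. The labels mark all 3 control libraries, and no siBRG1 library, as taken from an earlier deposit, so the deposit and the knockdown cannot be told apart for any gene below. Whether replicates came from separate cultures is not in the labels, and a p-value here thus covers only library-to-library spread, possibly technical.

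S100 proteins are small proteins with paired EF-hand loops that bind calcium, and most work as dimers that open a binding face for partner proteins. Annexins bind acidic phospholipids when calcium rises and gather at membranes during trafficking, repair and the release of vesicles. The families meet in shared complexes: S100A10, whose loops no longer bind calcium, pairs with ANXA2 in a heterotetramer at the plasma membrane that also docks plasminogen, and S100A11 binds the tail of ANXA1. In epithelia these proteins link calcium signals to the cortical actin network and to adhesion.

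Libraries held 12391161 to 13369692 gene counts in siBRG1 and 40228678 to 49720320 in control. Values below are CPM (the count scaled to the TMM-normalised library total), as mean ± SD with n = 3 per group. SMARCA4 stood at 63.3 ± 14.4 CPM in siBRG1 and 258 ± 11.8 CPM in control, without overlap. Of 9 epithelial markers all 9 were tested, and 5 were higher and 2 lower in siBRG1, while their summed levels were 3489 to 3743 CPM in siBRG1 and 3943 to 4028 CPM in control. The 2 lower were KRT7, at 31.7 to 39.6 CPM in siBRG1 and 185 to 202 CPM in control, and KRT19. KRT19 stood at 609 ± 14.4 CPM in siBRG1 and 883 ± 20.4 CPM in control. Of the 5 higher, only KRT8 was abundant, at 1655 ± 46.3 CPM in siBRG1 and 1556 ± 12.8 CPM in control. EPCAM, another of the 5, was scarce, at 1.61 ± 0.264 CPM in siBRG1 and 0.251 ± 0.0889 CPM in control. Markers of stromal fibroblasts were present too: 7 of 8 were higher and 1 lower in siBRG1, with summed levels of 4918 to 5269 CPM against 2747 to 2940 CPM. Over all genes tested, 36.1% were higher and 36.5% lower in siBRG1, by the test given below. The 7 markers of basal squamous epithelium all stayed under 1 CPM in both groups, with KRT6A, DSG3 and KRT1 at 0 counts. Of 7 leukocyte markers, 6 stayed under 1 CPM in both groups, and CD14 was the other, at 9.39 ± 0.443 against 4.08 ± 0.561 CPM. The part of any of these in the results below was not tested.

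Of the 10 genes, 6 were higher in siBRG1, 3 were lower and 1 did not pass the test (edgeR's quasi-likelihood test with Benjamini-Hochberg adjustment over 15830 genes, adjusted p under 0.05). Over all genes tested 72.6% passed, 36.1% as higher and 36.5% as lower, so 9 of 10 is a share of 90% beside a background that is already high. CPM did not overlap between groups for 9 of the 10, where 74.3% of all genes tested did not. Called changes of 2-fold or more came from 3 of the 10, S100A2, S100A4 and ANXA2, and from 21.6% of all genes. The median log2 fold change (siBRG1 over control) was 0.27 for the 10 genes and −0.01 for all genes.

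**Figure D1:**
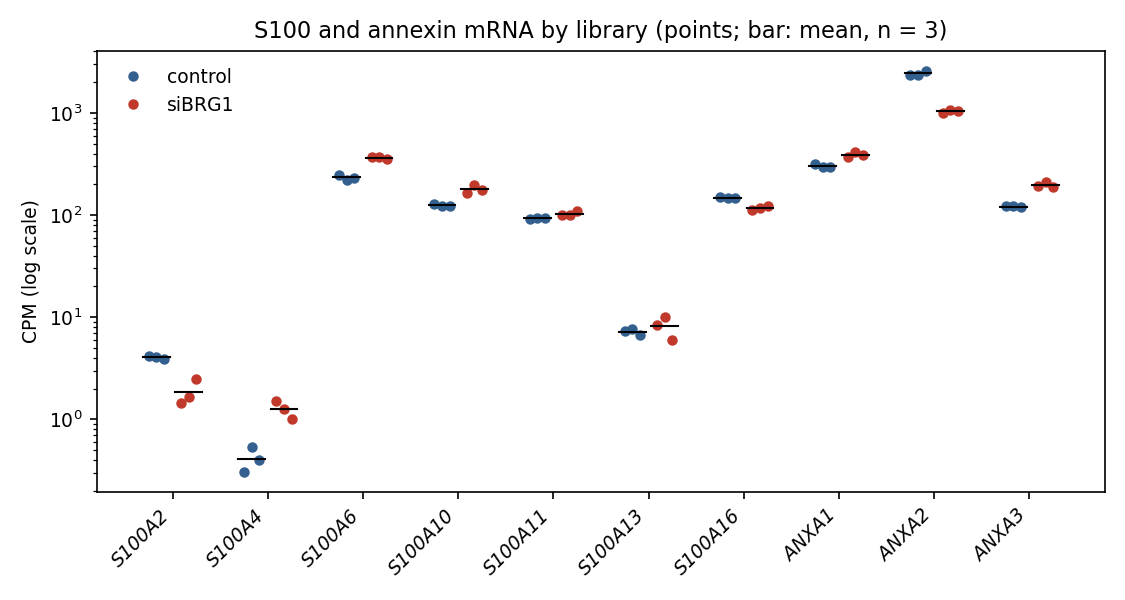
CPM on a log axis for each gene, with 1 point per library (blue control, red siBRG1) and a bar at the mean of 3. ANXA2 lies far above the other genes in both groups and falls in siBRG1, S100A4 and S100A2 lie near 1 CPM and move in opposite directions, and the points of S100A13 overlap.

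The genes spanned a wide range of abundance. Per kb of principal transcript, the control levels ran from ANXA2 at 1451 ± 77.9 CPM per kb through S100A6 at 347 ± 17.5, S100A11 at 156 ± 2.91, ANXA1 at 137 ± 5.49, S100A16 at 129 ± 1.37, S100A10 at 104 ± 2.69 and ANXA3 at 73.0 ± 0.918 CPM per kb. S100A13, S100A2 and S100A4 were much scarcer, at 10.5 ± 0.683, 4.08 ± 0.136 and 0.690 ± 0.190 CPM per kb. No neighbours in the control order overlapped between libraries. In siBRG1 the order changed. ANXA2 remained first at 619 ± 17.1 CPM per kb, but S100A6 came close, with libraries between 524 and 552 CPM per kb, ANXA1 (176 ± 10.1) overlapped S100A11 (173 ± 9.39), and S100A10 and ANXA3 stood above S100A16. S100A4 (2.11 ± 0.426) and S100A2 (1.87 ± 0.562) overlapped at the bottom. By this measure ANXA2 held rank 17 of 15830 genes in control and rank 73 in siBRG1, and S100A6 moved from rank 143 to rank 85. Order and ranks depend on the length taken. The principal transcript of ANXA2 has 1676 bases and all its merged exons 8824, against 673 and 971 for S100A6.

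Promoter sequence was available for 7 of the 10 genes, S100A4, S100A6, S100A10, S100A11, ANXA1, ANXA2 and ANXA3 (RefSeq, GRCh38.p14), as 250 bases before and 50 after the annotated start. The ANXA2 promoter is shown first because ANXA2 had the largest fall of the abundant genes. The outer part of its window that overlaps no annotated exon, chr15:60398044-60398236 on the minus strand, covers bases −250 to −58 from the start. It lies inside the annotated span of ANXA2, which reaches 60402883, so other annotated exons lie further upstream. Capitals mark an AP-1 motif (TGANTCA) and adjoining GC boxes (GGGCGG), searched on both strands.
ANXA2: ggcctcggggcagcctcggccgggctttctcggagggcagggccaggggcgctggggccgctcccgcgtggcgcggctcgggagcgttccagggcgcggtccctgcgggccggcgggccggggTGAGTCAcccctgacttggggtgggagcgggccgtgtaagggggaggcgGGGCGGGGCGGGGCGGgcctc

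ANXA2 was the 1 gene of the 7 with the AP-1 letters, which 7.709% of 35116 promoter windows of the same length hold. GC boxes were found in 4 of the 7, ANXA2, S100A6, S100A10 and S100A11, and in 44.95% of all windows. TATAAA was found in 3 of the 7 and in 11.53% of all windows, and the TEAD motif GGAATG in 0 of the 7 and in 14.03% of all windows. The 3 genes with TATAAA are shown because they include the largest rise, the largest fall and a smaller rise of this set while the box (capitals) sits at the same place, bases −31 to −26, in each.
S100A4: gcctggctggggTATAAAtaggtcagacct
ANXA1: cctttaaaatccTATAAAatcagaagccca
ANXA2: ggatgtggcgggTATAAAagccccacccag
These lie at chr1:153545820-153545849 (minus strand), chr9:73151822-73151851 (plus strand) and chr15:60398000-60398029 (minus strand). ANXA3, which rose, had neither a GC box nor TATAAA in the window, and ANXA2, which fell, had both. S100A6, S100A10 and S100A11, which all rose, had GC boxes (capitals) and no TATAAA in the window.
S100A6: CGGgacttGGGCGGGCGGggtgggcttggc
S100A10: acgctctgtctgGGGCGGgcgaggcctctg
S100A11: ggaggcggggagGGGCGGggcaggcgcgga
These lie at chr1:153536049-153536078, chr1:151994009-151994038 and chr1:152037055-152037084, all on the minus strand. The leading CGG of S100A6 is the end of a GC box at bases −90 to −85 that the printed stretch cuts, and its other GC boxes overlap. GC content of the full windows was 37.67% for ANXA1, 60.67% for S100A4 and 64.67% to 76% for the other 5. A match is a run of letters and shows no binding, and its absence covers only these 300 bases.

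ANXA2, the phospholipid-binding partner of S100A10 (ENSG00000182718.16, chromosome 15, 60347134 to 60402883 on GRCh38), stood at 1007, 1063 and 1044 CPM in the siBRG1 libraries and at 2361, 2353 and 2583 CPM in the control libraries. Every siBRG1 library lay far below every control library. The log2 fold change was −1.23 (SE 0.0410, adjusted p = 1.06e-20), a 2.34-fold fall, and 8.76% of all genes tested had a lower log2 fold change. ANXA2 has processed pseudogenes that could take some of its reads. ANXA2P2 held 0.502% of the ANXA2 counts in control and 1.39% in siBRG1, and was itself higher in siBRG1 (log2 fold change 0.25, SE 0.102, adjusted p = 0.0309). ANXA2P1 and ANXA2P3 had 14 and 9 counts over the control libraries and 0 over the siBRG1 libraries. Reads that match several places were counted for no gene, and they took 20.3 ± 1.62% of reads in siBRG1 and 9.81 ± 0.224% in control. How many of them came from ANXA2 was not tested.

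S100A10, the p11 subunit of the ANXA2 complex (ENSG00000197747.8, chromosome 1, 151982915 to 151994390), went the other way. Its siBRG1 libraries stood at 165, 197 and 174 CPM and its control libraries at 128, 124 and 122 CPM. The groups did not overlap, and the log2 fold change was 0.52 (SE 0.0493, adjusted p = 1.98e-10). The ratio of S100A10 to ANXA2 counts per kb was computed within each library, so that it does not depend on the library total. On the log2 scale it was −2.13, −1.95 and −2.10 in siBRG1 and −3.72, −3.77 and −3.92 in control, means of −2.06 ± 0.0984 and −3.80 ± 0.105. The ratio was thus 0.240 in siBRG1 and 0.0716 in control, a difference of 1.74 on the log2 scale (exact two-sided permutation p = 0.1, the smallest that 3 libraries against 3 allow). With all merged exons as the length, which counts many partial ANXA2 transcripts, the ratios were 0.983 and 0.294, so the absolute ratio depends on the length taken. A length fixed per gene cancels from the difference between groups.

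S100A11, which pairs with ANXA1 (ENSG00000163191.5, chromosome 1, 152032506 to 152047907), stood at 99.6, 99.7 and 109 CPM in siBRG1 and 90.8, 93.2 and 94.2 CPM in control. The groups lay close to each other without overlap, and the log2 fold change of 0.15 (SE 0.0470, adjusted p = 0.00587) is the smallest among the genes that passed. The call was lost with no count filter (adjusted p = 0.0700) and without siBRG1 replicate 3 (log2 fold change 0.11, adjusted p = 0.0574), and with GC and length trends removed the log2 fold change was 0.56. ANXA1, an anti-inflammatory annexin that acts inside cells and through formyl peptide receptors (ENSG00000135046.13, chromosome 9, 73151757 to 73170393), rose from 302 ± 12.1 to 388 ± 22.3 CPM. Its siBRG1 libraries at 368, 413 and 384 CPM all lay above its control libraries at 316, 297 and 294 CPM. The log2 fold change was 0.36 (SE 0.0417, adjusted p = 9.14e-09).

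The S100A11 to ANXA1 log2 ratio of counts per kb differed little, at −0.02 ± 0.120 in siBRG1 and 0.19 ± 0.0841 in control, a difference of −0.21 (exact two-sided permutation p = 0.1). The direction of this difference depends on the processing. With GC and length trends removed, the log2 fold change was 0.56 for S100A11 and 0.34 for ANXA1, so that S100A11 rose more. Against ANXA2, both genes of this pair shifted. The S100A11 to ANXA2 log2 ratio was −1.84 ± 0.0790 in siBRG1 and −3.22 ± 0.0602 in control, and the ANXA1 to ANXA2 log2 ratio was −1.82 ± 0.0468 and −3.41 ± 0.119 (exact two-sided permutation p = 0.1 for each ratio, and 0.1 after adjustment over the 4 ratios).

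**Figure D2:**
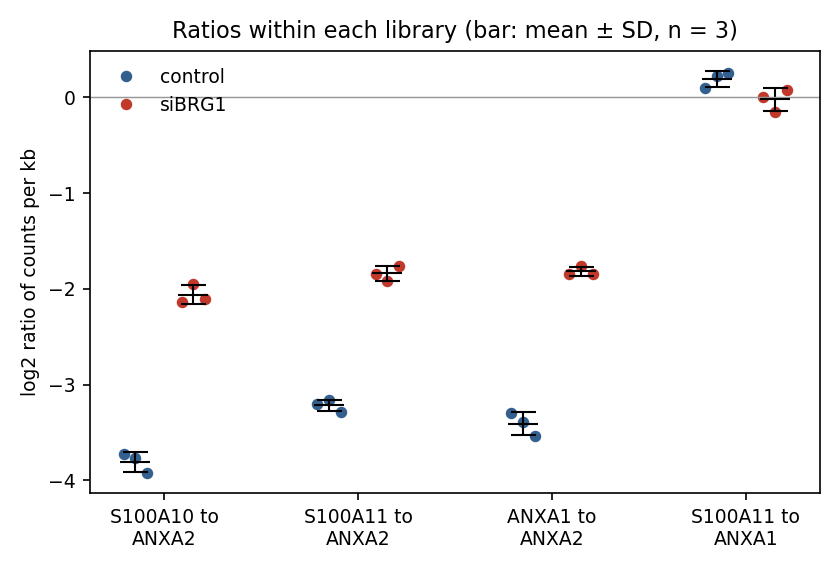
Log2 ratio of counts per kb of principal transcript within each library (blue control, red siBRG1; 1 point per library, bars mean ± SD, n = 3) for 4 pairs of genes. The 3 ratios to ANXA2 are −2.13 or higher in siBRG1 and −3.16 or lower in control, and the S100A11 to ANXA1 ratio lies near 0 in both.

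ANXA3 (ENSG00000138772.12, chromosome 4, 78551519 to 78610451), a membrane-binding annexin with no S100 partner named here, rose from 121 ± 1.52 to 196 ± 12.9 CPM. Its siBRG1 libraries stood at 191, 211 and 187 CPM and its control libraries at 122, 121 and 119 CPM. They did not overlap, and the log2 fold change was 0.70 (SE 0.0440, adjusted p = 2.77e-14).

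S100A6, calcyclin, a calcium sensor that binds CACYBP and several annexins (ENSG00000197956.9, chromosome 1, 153534599 to 153536244), was the most abundant S100 mRNA in both groups. It stood at 370, 372 and 352 CPM in siBRG1 and at 246, 223 and 232 CPM in control. Every siBRG1 library exceeded every control library by a wide margin. The log2 fold change was 0.64 (SE 0.0404, adjusted p = 2.37e-14). S100A16, a widely expressed member of the family (ENSG00000188643.10, chromosome 1, 153606886 to 153613145), fell by a smaller amount. It stood at 113, 118 and 124 CPM in siBRG1 and at 149, 146 and 147 CPM in control, again without overlap (log2 fold change −0.32, SE 0.0431, adjusted p = 1.60e-07).

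S100A4, a binding partner of non-muscle myosin that is often used as a fibroblast and metastasis marker (ENSG00000196154.11, chromosome 1, 153543613 to 153550136), was barely detected in control. It had 21, 16 and 13 counts in the siBRG1 libraries and 15, 21 and 16 counts in the deeper control libraries, which make 1.53, 1.25 and 1.02 CPM against 0.309, 0.535 and 0.398 CPM. The groups did not overlap, and the log2 fold change of 1.63 (SE 0.383, adjusted p = 0.000437) is the largest rise of the 10 genes and has the widest error. Its 95% interval runs from 0.88 to 2.38. With 50 counts in all in siBRG1 and 52 in control the size of this rise is loosely known, and S100A4 was not tested under the filter of 50 counts in 3 libraries. Most of the stromal fibroblast markers rose in the same libraries, as given above.

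S100A2, an S100 protein of basal epithelial layers (ENSG00000196754.10, chromosome 1, 153561108 to 153567890), fell from 4.07 ± 0.136 to 1.87 ± 0.561 CPM. The siBRG1 libraries held 20, 21 and 32 counts, or 1.46, 1.65 and 2.51 CPM, and the control libraries 204, 160 and 158 counts, or 4.20, 4.08 and 3.93 CPM. The groups did not overlap, although siBRG1 replicate 3 lay above the other 2 (log2 fold change −1.13, SE 0.211, adjusted p = 2.65e-05). The basal squamous markers were all near 0 in both groups.

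S100A13, which takes part in the release of FGF1 from cells (ENSG00000189171.14, chromosome 1, 153618787 to 153631360), did not pass the test. It stood at 8.45, 9.96 and 6.04 CPM in siBRG1 and at 7.37, 7.62 and 6.71 CPM in control, and the groups overlapped. The log2 fold change was 0.17 (SE 0.141, adjusted p = 0.278, 95% interval −0.10 to 0.45). Without siBRG1 replicate 3, its lowest library, it was 0.34 (adjusted p = 0.0266), without siBRG1 replicate 2, its highest, it was 0.01, and with GC and length trends removed it was −0.05 (adjusted p = 0.773). S100A13 shares 24.2% of its exon bases with AL162258.1 on the same strand, and reads there may have been left uncounted.

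In the authors' deposited table, whose values are from their own DESeq2 comparison, all 10 genes had the same direction as here and the same 9 passed an adjusted p under 0.05. There ANXA2 had a log2 fold change of −1.25 (SE 0.0380) and S100A10 of 0.49 (SE 0.0518), and S100A13 had 0.15 (adjusted p = 0.405).

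**Figure D3:**
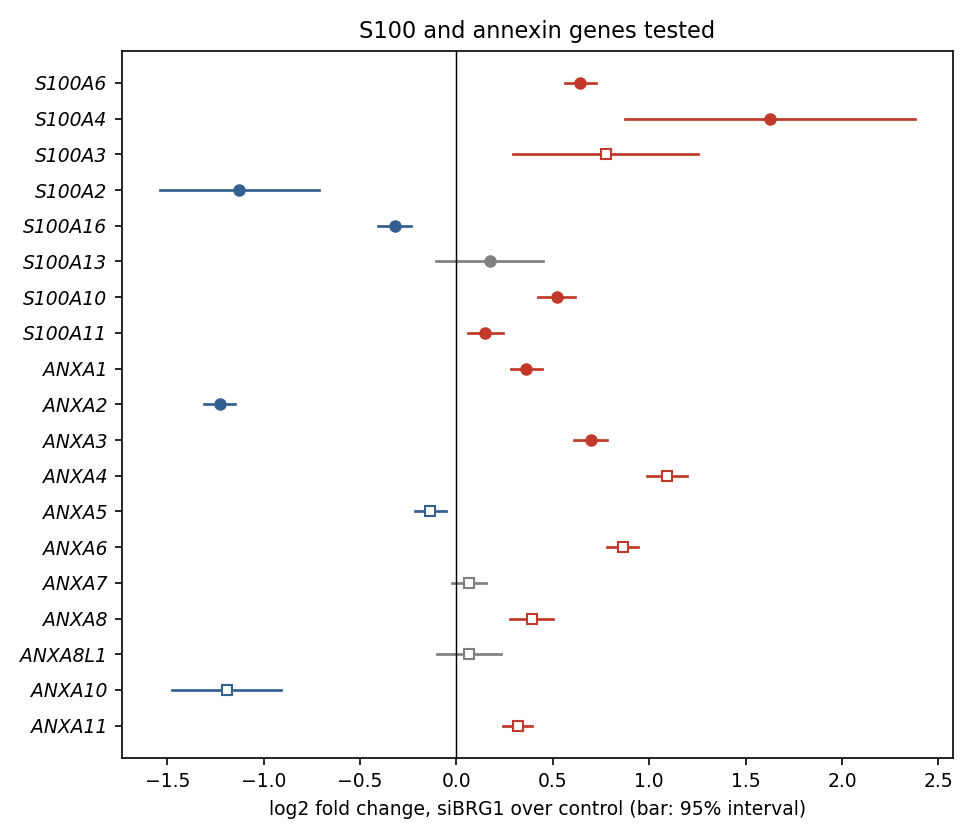
Log2 fold change, siBRG1 over control, with its 95% interval for every S100 and annexin gene tested. Filled circles are the 10 genes followed here, open squares the rest of the families, red higher, blue lower and grey not passing the test. ANXA2, ANXA10 and S100A2 lie below −1, S100A4 and ANXA4 above 1, and the widest interval is that of S100A4.

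All 7 S100A genes lie on the minus strand of chromosome 1 within 1648 kb, from 151982915 to 153631360. Along the chromosome, S100A10, S100A11, S100A6 and S100A4 rose, S100A2 and S100A16 fell, and S100A13 did not pass. Neighbours could differ in direction: S100A4 (log2 fold change 1.63) and S100A2 (−1.13) lie next to each other. The interval holds 62 protein-coding genes. Of these 9 were tested, and 42 had 0 counts in every library. The 3 tested genes of the interval outside the set were S100A3, higher (log2 fold change 0.78, SE 0.245, adjusted p = 0.00605), TCHH, which did not pass (0.80, SE 0.636, adjusted p = 0.264), and the antisense gene FLG-AS1, lower (log2 fold change −1.89, SE 0.289, adjusted p = 1.32e-06). S100A3 lies inside the span of S100A4 on the same strand without shared exon bases, and it was named after its value was seen.

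Just beyond the interval, CHTOP, SNAPIN and ILF2 on the side of S100A13 were higher, with log2 fold changes of 0.29, 0.56 and 0.13 (adjusted p = 6.70e-06, 6.82e-08 and 0.00260). On the side of S100A10, THEM4 was lower (log2 fold change −0.32, adjusted p = 0.0145), TDRKH was higher (0.97, adjusted p = 1.45e-09) and OAZ3 did not pass (−0.21, adjusted p = 0.755). The flanking genes thus moved in both directions, as did the S100A genes between them.

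The rest of the S100 family was nearly silent. Of 14 other S100 genes, S100A3 was the 1 tested, with 2.59 ± 0.515 CPM after knockdown and 1.51 ± 0.224 CPM in control, and 7 had 0 counts in every library, among them S100A8 and S100A9, the calprotectin subunits of myeloid cells. A count of 0 in a library allows up to 3 counts, which is 0.219 to 0.235 CPM in siBRG1 and 0.0618 to 0.0765 CPM in control, for counting error only.

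Other annexins were more active: 8 of 10 were tested, 4 were higher, 2 were lower and 2 did not pass. The passing share, 75%, was close to the 72.6% of all genes, and the median change was 0.19 on the log2 scale. With unstranded counts 5 were higher and 1 lower, and with GC and length trends removed 4 were higher and 3 lower, with a median of 0.09. ANXA4 had 36.7 ± 0.978 CPM in control and 78.3 ± 2.04 CPM in siBRG1, a rise of 1.09 on the log2 scale (SE 0.0532, adjusted p = 7.66e-17). ANXA6, a large annexin with a duplicated core, had 154 ± 6.58 and 279 ± 13.3 CPM, a rise of 0.86 (SE 0.0421). With GC and length trends removed the ANXA6 rise was 0.63. ANXA11, which binds S100A6, rose by 0.32 on the log2 scale (SE 0.0380, and 0.21 with GC and length trends removed). ANXA8 rose by 0.39 (SE 0.0560, and 0.16 with those trends removed), but it is nearly identical in sequence to ANXA8L1 (log2 fold change 0.06, adjusted p = 0.505), so single values of this pair are uncertain.

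ANXA10 fell, with 8.99 ± 0.676 CPM in control and 3.92 ± 0.471 CPM in siBRG1, by 1.19 on the log2 scale (SE 0.145, adjusted p = 2.44e-08). ANXA5, the phosphatidylserine binder used as a probe of dying cells, was abundant and fell slightly, with 581 ± 7.65 CPM in control and 529.7 ± 31.5 CPM in siBRG1; the log2 fold change was −0.13 (SE 0.0399, adjusted p = 0.00366). That call was lost with unstranded counts (log2 fold change −0.08, adjusted p = 0.0767), and the log2 fold change was −0.20 with GC and length trends removed. ANXA7 was not called (log2 fold change 0.07, SE 0.0449, adjusted p = 0.186).

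The make-up of each family differed between the groups. Summed over 13 annexins, the level was 1462, 1577 and 1506 CPM per kb in siBRG1 and 2184, 2163 and 2291 CPM per kb in control. ANXA2 made up 40.9 ± 0.611% of that sum in siBRG1 and 65.5 ± 1.50% in control. The shares of ANXA1, ANXA3 and ANXA5 were larger in siBRG1, at 11.6 ± 0.220% against 6.19 ± 0.375%, 7.81 ± 0.291% against 3.30 ± 0.139%, and 19.8 ± 0.480% against 14.9 ± 0.589%. Shares within 1 sum are tied to each other, and the ANXA5 share rose while its own level fell. Sums in CPM per kb, and shares of them, depend on the length taken for each gene.

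Summed over 21 S100 genes, the level moved the other way, at 974, 1009 and 977 CPM per kb in siBRG1 and 773, 737 and 749 CPM per kb in control. S100A6 made up 54.9 ± 1.48% of the S100 sum in siBRG1 and 46.1 ± 1.18% in control, and S100A16 made up 10.4 ± 0.519% and 17.1 ± 0.244%. As a share of all gene counts the 10 genes took 0.246 ± 0.00762% in siBRG1 and 0.337 ± 0.0101% in control. The 3 annexins took 0.166 ± 0.00575% and 0.278 ± 0.0104%, and the 7 S100 genes 0.0796 ± 0.00188% and 0.0594 ± 0.00158%. For each of these sums and shares the libraries of the groups did not overlap (permutation p = 0.1 for each, exact and two-sided, again the floor).

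**Figure D4:**
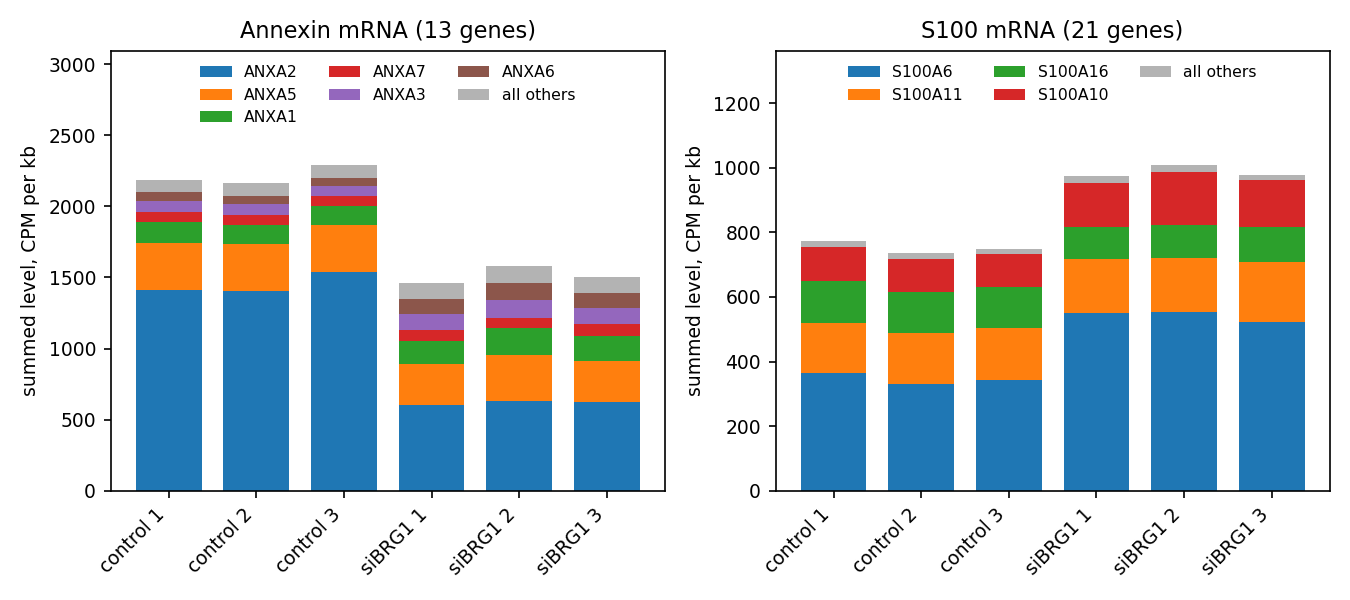
Stacked levels in CPM per kb of principal transcript for 13 annexins (left) and 21 S100 genes (right), 1 bar per library. The ANXA2 block shrinks from 1404 CPM per kb or more in control to 634 or less in siBRG1, while the S100A6 block grows from 366 or less to 524 or more.

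Receptors and candidate binding partners of these proteins were covered by a list of 36 genes, of which 26 were tested, 8 higher, 14 lower and 4 not passing (median log2 fold change −0.18). Among plasminogen-related genes, PLAU, which encodes urokinase, had 20.5 ± 1.44 CPM in control and 100.3 ± 18.4 CPM in siBRG1, a rise of 2.29 on the log2 scale (SE 0.137, adjusted p = 2.50e-06). PLGRKT, a plasminogen receptor, rose by 1.34 (SE 0.115), while PLG, which encodes plasminogen itself, had 0 counts in every library. PLAT, which encodes tissue plasminogen activator, a ligand of the ANXA2 and S100A10 complex, fell by 0.40 on the log2 scale (SE 0.0455), and PLAUR, the urokinase receptor gene, was not called (0.04, adjusted p = 0.567). BSG, which encodes the surface glycoprotein basigin, rose by 1.00 (SE 0.0397) and TLR4, a receptor for S100A8 and S100A9, by 0.70 (SE 0.185), both on the log2 scale. Under the alternative ways of processing, the BSG rise ran from 0.67 to 1.06.

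The falls that the rule names in the same list were those of AHNAK, MYH9, TMOD3 and SUGT1. AHNAK, a giant scaffold that the ANXA2 and S100A10 complex binds, had 3175 ± 322 CPM in control and 1814 ± 159 CPM in siBRG1, a log2 change of −0.81 (SE 0.0853, adjusted p = 4.76e-05). MYH9, the non-muscle myosin heavy chain that S100A4 binds, fell by 0.77 on the log2 scale (SE 0.0428), and TMOD3, which caps actin filaments, by 0.81 (SE 0.0376). SUGT1, a co-chaperone, fell by 0.83 (SE 0.0497), and CACYBP, named for its binding of S100A6, by 0.37 (SE 0.0499). PLAT, PLAUR, PLG and CACYBP fall outside the rule for named genes and were named after their values were seen. The formyl peptide receptors of ANXA1 were at or near 0, with FPR2 and FPR3 at 0 counts in all libraries and FPR1 at 8 counts in all in siBRG1 and 12 in control.

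Of 40 genes of membrane repair and calcium handling, 38 were tested, 13 higher, 18 lower and 7 not passing (median log2 fold change −0.05). The balance moved with the processing, to 16 higher and 15 lower with unstranded counts and 10 higher and 19 lower with no count filter. The largest falls were in CANX, the calcium-binding chaperone calnexin (log2 fold change −1.16, SE 0.0379), EHD2, a caveolar ATPase (−0.85, SE 0.0417), and ATP2B4, a plasma membrane calcium pump (−0.71, SE 0.0397). CALM3, which encodes the calcium sensor calmodulin, rose by 0.54 on the log2 scale (SE 0.0359), and CAPNS1, the small calpain subunit, by 0.58 (SE 0.0366). With GC and length trends removed these were 0.28 and 0.25. The EF-hand genes RCN3 and GCA rose by 1.60 (SE 0.126) and 1.24 (SE 0.0979). The share of genes passing the test was 84.6% in the partner list and 81.6% here, beside 72.6% of all genes.

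**Figure D5:**
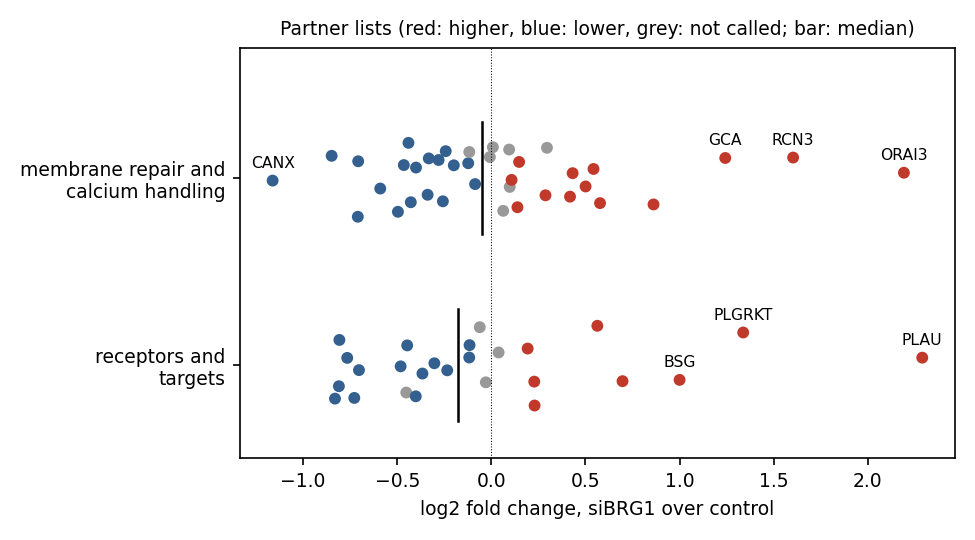
Log2 fold change, siBRG1 over control, of each tested gene in the partner list (26 genes) and in the membrane repair and calcium list (38 genes), with vertical position only to separate points. Both medians lie below 0, and genes beyond 1 in either direction are named, ORAI3 being below the count minimum for named genes.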

How the data were processed

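RNA of 12Z cells was sequenced in 6 libraries, made per the labels from 500 ng of total RNA with a directional mRNA kit. Per the submitters' processing notes, reads were handled with cutadapt, Trim Galore, FastQC and STAR on GRCh38.p12; versions and the annotation release are not given in the sources used here. The authors deposited raw counts per gene with unstranded and both stranded columns, and the stranded column with the larger total was used. Their own comparison, per the file headers, holds a mean signal, a log2 fold change with SE, a test statistic and weight (score), and p-values; of these the authors' log2 values and adjusted p-values are quoted and the deposited signal and score are not used. Rows without a gene name stayed out of totals and tests. They took 20.3 ± 1.62% (several places), 3.97 ± 0.194% (no feature), 3.11 ± 0.0288% (ambiguous) and 1.84 ± 0.0732% (unmapped) of reads in siBRG1 and 9.81 ± 0.224%, 13.3 ± 0.415%, 4.16 ± 0.0271% and 1.64 ± 0.0678% in control. Of 58336 identifiers, 58216 matched GENCODE release 29, 56888 of them with version.

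All genes were fitted with edgeR 4.0.16 in R 4.3.3 (TMM, filterByExpr, robust quasi-likelihood fit on the group, two-sided), and 15830 were tested. The SE is the absolute log2 fold change over the square root of F, and 95% intervals use it. Levels between genes are per kb of the APPRIS principal transcript, chosen after merged exon lengths had been seen. Scalars were compared with exact permutation tests in scipy 1.17.1. No 2 libraries of a group looked like a duplicate: their counts gave a chi-square of 2.50 to 4.20 for each degree of freedom.

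The 10 genes, the lists and the tests were chosen with earlier results of these data known. Named were the 10 genes, SMARCA4 and SMARCA2, of each other list up to 4 called genes per direction (mean count 50 or more), and genes in or next to the S100A interval. A gene that this rule names is not reported here. SMARCA2, the alternative ATPase gene, had a log2 fold change of 0.04 and was not called (adjusted p = 0.598). Of 5 endothelial markers 1 was higher and 1 lower. Alternatives were DESeq2 size factors, the DESeq2 1.42.0 Wald test, other count filters, unstranded counts, protein-coding genes alone, GC and length trends removed, thinned counts, each library left out and a replicate block.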

Additional observations from a re-analysis of the deposited data

Results flagged for a closer look

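Antisense counts enter the comparisons above only through the unstranded counts and were not compared there on their own. They were higher in every siBRG1 library than in any control library at 3 of the 10 genes. Scaled as CPM to the gene counts of the library they came to 2.12 ± 0.807 in siBRG1 and 0.791 ± 0.216 in control at S100A6, 1.23 ± 0.253 and 0.560 ± 0.158 at S100A10, and 0.849 ± 0.496 and 0.360 ± 0.0380 at S100A16 (exact two-sided permutation p = 0.1 for each, the smallest that 3 libraries against 3 allow, among 10 genes examined). At ANXA2 the order was the opposite: antisense counts came to 4.12 ± 1.76 in siBRG1 and 6.58 ± 1.07 in control, lower in every siBRG1 library than in any control library (exact two-sided permutation p = 0.1). Among the 15830 genes tested, antisense counts were higher in every siBRG1 library for 12.9% and lower for 16.3%. The values at S100A6, S100A10 and S100A16 rest on 81, 47 and 33 antisense counts over the siBRG1 libraries. Antisense counts were 0.563%, 0.666% and 0.708% of the stranded counts of these genes in siBRG1 and 0.352%, 0.467% and 0.248% in control.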

How the results depend on the processing

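Of the 10 genes, 8 or 9 passed under each of the 16 alternatives; 8 passed with no count filter, where S100A11 was lost, and with a minimum of 50 counts in 3 libraries, where S100A4 was not tested. Without siBRG1 replicate 3, S100A11 was lost and S100A13 passed. Over all genes the calls ranged from 9698 (protein-coding genes alone) to 12541 (no count filter). S100A13, which was not called, turned to −0.0468 with GC and length trends removed and to −0.0578 with these and the replicate block together. SMARCA2, also not called, was at −0.00508 with no count filter and −0.00201 with protein-coding genes alone, ranged from −0.0395 to 0.136 when each library was left out in turn, and passed at its highest value there (without siBRG1 replicate 3, adjusted p = 0.0453), at 0.29 with GC and length trends removed and at 0.28 with the replicate block added to these; the cause was not tested. The difference in the share of counts held by the 10 genes was −0.0911 percentage points and −0.101 when the total held protein-coding genes alone. Over that smaller total the shares were 0.255% in siBRG1 and 0.357% in control, against 0.246% and 0.337% over all genes. With each library left out in turn, the difference over all genes ran from −0.0954 to −0.0855. The length of all merged exons, for the S100A10 to ANXA2 ratio, was added after seeing the data. The replicate block left 9 of the 10 genes called and 11194 of all genes. The numbers share no known source: deviations of same-numbered libraries correlated at −0.0126, 0.0220 and 0.00898 across genes, and only siBRG1 replicate 2 correlated best with its own number. S100A4 and S100A2 rest on few counts, and siBRG1 libraries are about as deep as each other but shallower than control.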
